A study of Danio rerio with 20 samples.

Results

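The gene acaa2 was targeted by 2 Cas9 guide RNAs, acaa2-sg1 and acaa2-sg2, and both target sites were read by amplicon sequencing in zebrafish melanomas. Taking every column of the acaa2 allele tables gave 8 samples out of the 20 of the series, which were 4 acaa2-sg1 samples and 4 acaa2-sg2 samples from fish numbered 1 to 4. All 8 samples were labelled as Acaa2 knockout melanoma. The tumours had been raised by TEAZ, which electroporates transgenes into adult zebrafish, and DNA came from sorted cells that carried both tdTomato fluorescence and Hoechst stain. Fish strain, age, the transgenes and the promoter that drove Cas9 were not given in the labels, and DNA of unedited tissue was not analysed here. Samples with the same fish number were taken to come from 1 tumour, although the labels do not say so.

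The acaa2 gene encodes a mitochondrial 3-ketoacyl-CoA thiolase, which splits acetyl-CoA off a shortening fatty acid in beta-oxidation. Cas9 cuts both DNA strands a few bases from the NGG motif (the protospacer-adjacent motif, PAM) that it needs beside its target. End joining then often leaves a small insertion or deletion, called an indel. An indel whose length is not a multiple of 3 shifts the reading frame of a coding exon, whereas an indel of a multiple of 3 removes or adds whole codons.

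The bases around each cut were rebuilt from the substitution alleles, to show what each deletion removed. At each of the 14 positions listed, from -8 to 6 with no position 0, all 3 other bases had been read, in at least 21 reads each at acaa2-sg1 and at least 51 at acaa2-sg2, which left 1 unmodified base. The stretches are written 5′ to 3′ on the strand of the table's numbering, with the last 3 bases in capitals.
acaa2-sg1: acgggcgatgtAGG
acaa2-sg2: tacgtgccgaaCGG
Both stretches ended in an NGG motif, so the boundary between positions -1 and 1, called position 0 here, lay 3 bases before a PAM, where Cas9 usually cuts. The same reading ended in GG in 5 of the 6 tables of the series, and the table of tlr4ba-sg1 was the exception. The rest of each guide, its place in the genome and its exon were not analysed here, so a frameshift below is a statement about indel length.

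Deletions that led in the acaa2 samples are shown on these stretches, with the removed bases in capitals. An allele name gives the first removed position, the number of bases and D for deletion or I for insertion. Not drawn are 5:1D, first in acaa2-sg1 fish 1 with 87 reads, and -3:1D, second in acaa2-sg2 fish 2 with 321 reads. At acaa2-sg1 the other leading deletions were these.
1:1D: acgggcgaTgtagg
1:2D: acgggcgaTGtagg
1:5D: acgggcgaTGTAGg
1:7D: acgggcgaTGTAGG
-1:1D: acgggcgAtgtagg
-6:12D: acGGGCGATGTAGG
-11:10D: ACGGGCGatgtagg
The 7-bp deletion also removed 1 base right of this stretch, and the 10-bp deletion 3 bases left of it. At acaa2-sg2 the other leading deletions were these.
-2:1D: tacgtgCcgaacgg
-16:14D: TACGTGccgaacgg
-15:12D: TACGTgccgaacgg
-6:12D: taCGTGCCGAACGG
-3:8D: tacgtGCCGAACGg
-15:8D,-3:2D: TacgtGCcgaacgg
The 14-bp, 12-bp (-15:12D) and double deletions removed a further 8, 7 and 7 bases to the left. Some deletions in a repeat give the same product at more than 1 place, as with the 1-bp deletion -2:1D, which removed 1 of a pair of C bases. In such cases the tables used the leftmost place. Of 13 equal placements further right at acaa2-sg1 and 7 at acaa2-sg2, 0 were listed, while the leftmost ones held 53437 and 478242 reads.

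Depth was 114697 to 252008 reads per sample at acaa2-sg1 and 282721 to 729540 at acaa2-sg2. Reads that the tables counted as Other, without a described allele, made up 0.336% to 2.62% of the reads at acaa2-sg1 and 0.059% to 0.310% at acaa2-sg2. They were left out, and percentages below are of the remaining, classified reads unless another base is named. Substitution-only reads were counted as unedited. Of the unedited reads at acaa2-sg1, the share with a substitution was 15.0%, 15.9%, 10.8% and 11.4% in fish 1 to 4. At acaa2-sg2 it was 12.4%, 12.6%, 1.89% and 1.90%. On this base fish 1 and 2 lay above fish 3 and 4 at both sites, though at acaa2-sg1 only through the allele SNV:3G. As a share of all classified reads, substitution-only reads were 15.0%, 2.79%, 6.54% and 6.51% at acaa2-sg1, where fish 2 lay below fish 3 and 4. At acaa2-sg2 they were 12.3%, 1.47%, 0.203% and 1.16%, with fish 1 and 2 above fish 3 and 4. The substitution SNV:3G of acaa2-sg1 (T3G, with positions counted from position 0) took 14.0% and 2.50% of the reads of fish 1 and 2, and 1.02% and 0.982% of those of fish 3 and 4. It had 28904, 2859, 2260 and 2411 reads in fish 1 to 4, beside 174935, 16869, 119478 and 124626 unmodified reads. Most substitution-only reads of fish 1 and 2 at acaa2-sg1 carried it, but few of those of fish 3 and 4. The substitutions SNV:-1G and SNV:-3G, given below, followed the opposite split between these fish. No batch is given in the labels, so each guide difference is also given within these 2 pairs of fish, where the smallest exact permutation p is 0.333.

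The tumours fell into different states, and the 2 sites of a tumour could differ. Fish 2 was edited to frameshift lengths at both sites, with 82.4% of reads at acaa2-sg1 and 88.3% at acaa2-sg2. In fish 3, frameshift indels took 39.5% of reads at acaa2-sg1 and 53.8% at acaa2-sg2, and in-frame indels took a further 0.177% and 35.5%. Fish 4 had the opposite pattern of in-frame indels, with 18.7% at acaa2-sg1 and 0.0029% at acaa2-sg2, beside frameshift indels at 24.0% and 39.1%. Fish 1 was almost unedited, with frameshift indels in 0.078% of reads at acaa2-sg1 and 0.457% at acaa2-sg2, and in-frame indels in 0.00049% and 0.908%. Frameshift reads were thus fewer at acaa2-sg1 than at acaa2-sg2 in all 4 fish, with differences of -0.379, -5.93, -14.3 and -15.2 percentage points in fish 1 to 4.

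**Figure D1:**
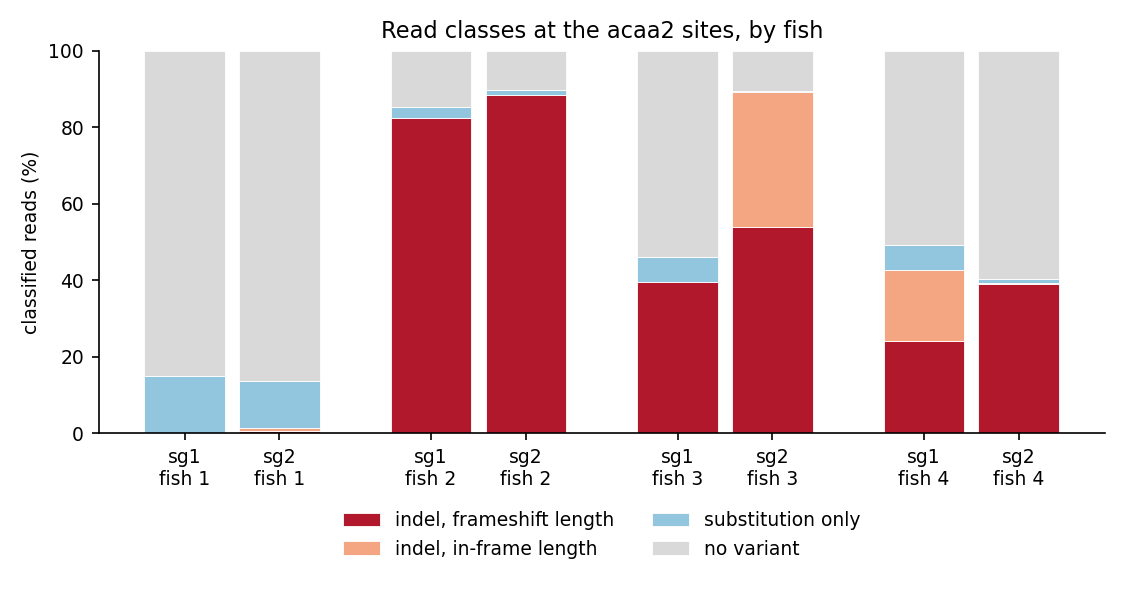
Share of classified reads (%, linear axis) in 4 read classes at acaa2-sg1 and acaa2-sg2, with 1 stacked bar per sample. Frameshift indels fill 82.4% and 88.3% of the bars of fish 2, the in-frame class is tall in acaa2-sg1 fish 4 (18.7%) and acaa2-sg2 fish 3 (35.5%), and fish 1 shows almost no indels.

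Averaged over fish, frameshift reads made up 36.5% ± 34.6 at acaa2-sg1 and 45.4% ± 36.4 at acaa2-sg2 (SD, n = 4 each). The difference, -8.95 points, was smaller in size than either SD (exact two-sided permutation p = 0.686). Taken within fish, all 4 differences were negative, and their SD of 7.07 points was smaller than the size of the mean difference. The exact sign-flip permutation p of 0.125 is the smallest that 4 fish allow. Within pairs the frameshift difference came to -3.16 points (fish 1 and 2) and -14.7 points (fish 3 and 4). In-frame reads averaged 4.74% ± 9.34 at acaa2-sg1 and 9.09% ± 17.6 at acaa2-sg2 (SD, n = 4 each), a difference of -4.36 points (exact permutation p = 0.657). Both in-frame means rested on 1 fish each, and without fish 3 the difference was 5.95 points. Within pairs it came to -0.441 points (fish 1 and 2) and -8.27 points (fish 3 and 4). The indel percent, which sums both classes, differed by -13.3 points (exact permutation p = 0.514), or -3.60 points (fish 1 and 2) and -23.0 points (fish 3 and 4) within pairs. Without acaa2-sg1 fish 1 the indel difference was 0.407 points and the frameshift difference 3.18 points, and without acaa2-sg2 fish 2 the frameshift difference was 5.35 points.

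Few alleles carried the editing. An allele is called major here where it reached 1% of a sample's classified reads. At acaa2-sg1 there were 8 major alleles, of which 7 were deletions and 1 was an insertion, with lengths of 1 to 12 bp, and 7 of the 8 shifted the frame. At acaa2-sg2 there were 3, all deletions of 1 to 14 bp, and 2 of them shifted the frame. By fish, acaa2-sg1 had 0, 2, 4 and 3 major alleles in fish 1 to 4, and acaa2-sg2 had 0, 1, 3 and 1. The site of acaa2-sg1 had more in fish 2, 3 and 4 and as many in fish 1. The mean was 2.25 ± 1.71 at acaa2-sg1 and 1.25 ± 1.26 at acaa2-sg2 (SD, n = 4 each). The difference of 1 was smaller than either SD (exact permutation p = 0.486). It was larger than the SD of the within-fish differences, 0.816 (exact sign-flip permutation p = 0.25). It was 0.5 in fish 1 and 2 and 1.5 in fish 3 and 4. With the threshold for a major allele at 0.5%, 2% and 5%, the difference was 1, 0.5 and 0.25. The counts of acaa2-sg1 fish 3 and 4 include -1:1D, which is taken up below. Just above the threshold lay 1:5D of acaa2-sg1 fish 3 at 1.12%, and just below it lay 1:2D of acaa2-sg1 fish 4 at 0.958% and -6:12D of acaa2-sg2 fish 1 at 0.900%.

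At acaa2-sg1 the most abundant deletion of fish 2 and that of fish 3 began on the right of position 0. In fish 2 the 2-bp deletion 1:2D held 44.4% of reads (95% Wilson interval 44.1 to 44.7) and the 7-bp deletion 1:7D held 37.0% (36.7 to 37.3). These alleles share their first base, and both shift the frame. In fish 3 the 1-bp deletion 1:1D held 32.5% (interval 32.3 to 32.7), the 1-bp deletion -1:1D 3.41%, the 1-bp insertion 1:1I 1.84% and the 5-bp deletion 1:5D 1.12%. Each removes or adds bases at the boundary itself, and all 4 shift the frame. Fish 4 differed from both, with the in-frame 12-bp deletion -6:12D at 18.4% (18.3 to 18.6), the 10-bp frameshift deletion -11:10D at 17.9% (17.7 to 18.0) and -1:1D at 3.71%. Here -6:12D took out 6 bases on each side of position 0, PAM included, as the capitals above show.

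The 1-bp deletion -1:1D was the only acaa2-sg1 allele that was major in 2 fish. It had 0 and 1 reads in fish 1 and 2, and 7575 and 9111 reads in fish 3 and 4. Per 100 unmodified reads this was 6.34 in fish 3 and 7.31 in fish 4. The substitution of the same base to G moved with it, at 0.014, 0.018, 2.42 and 2.47 reads per 100 unmodified reads in fish 1 to 4. At position -3, the substitution SNV:-3G followed the same split, at 0.013, 0.018, 1.003 and 0.997 per 100. The part of substitutions at this base in the count of -1:1D was not tested.

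At acaa2-sg2 a single 1-bp deletion, -2:1D, led in 2 tumours. Its share of the indel reads was 99.8% in fish 2 and 98.3% in fish 4, so that 88.2% and 38.5% of their classified reads carried it. In fish 3 it stood at 2.38%, behind the 14-bp frameshift deletion -16:14D at 51.0% (95% Wilson interval 50.9 to 51.1) and the 12-bp in-frame deletion -15:12D at 35.4% (35.3 to 35.5). Both long deletions end left of position 0 and overlap over 12 bases. In fish 4 they had 11 and 8 reads, and in fish 1 and 2 they had 0, which allows up to 0.00106% and 0.00102%. Fish 4 also held an allele of 2 separate deletions, -15:8D,-3:2D, in 1889 reads (0.364%), and this allele had 0 reads in the other fish. The few indel reads of fish 1 were made up of the 12-bp deletion -6:12D (2540 reads, 66.0% of its 3850 indel reads) and the 8-bp deletion -3:8D (1216 reads, 31.6%).

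The spectra of different fish overlapped little, with 1 exception. For each pair of fish, the smaller of the 2 shares of each allele among indel reads was summed. At acaa2-sg1 this overlap was 0.192% to 2.78% in 5 of the pairs and 9.89% between fish 3 and 4. The latter came mostly through -1:1D, at 8.61% and 8.69% of their indel reads. At acaa2-sg2 the overlap was 98.5% between fish 2 and 4, through -2:1D, and 0.301% to 2.72% in the other pairs. Over all reads, 274 indel alleles were listed at acaa2-sg1 and 172 at acaa2-sg2, and 235 and 142 of them were seen in a single fish. Alleles with 1 read in the sample numbered 9, 25, 56 and 87 at acaa2-sg1 in fish 1 to 4, and 9, 21, 42 and 28 at acaa2-sg2. Alleles this rare can be missed in another fish, so the single-fish counts do not measure overlap. The low overlap of fish 1 at acaa2-sg1 rests on 161 indel reads.

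The evenness of the spectra was summarised as the effective number of alleles, which is 1 when a single allele holds all indel reads. It was 2.95, 2.03, 1.47 and 2.70 at acaa2-sg1 in fish 1 to 4, and 1.87, 1.004, 2.06 and 1.03 at acaa2-sg2. Fish 1, 2 and 4 had the higher value at acaa2-sg1, and fish 3 had it at acaa2-sg2. The mean was 2.29 ± 0.672 at acaa2-sg1 and 1.49 ± 0.552 at acaa2-sg2 (SD, n = 4 each). The difference of 0.80 was larger than either SD, and its exact permutation p was 0.143. The value of acaa2-sg1 fish 1 rests on 161 indel reads, and without that sample the difference was 0.575 (exact permutation p = 0.257). The difference was 1.06 in fish 1 and 2 and 0.537 in fish 3 and 4. In the tlr4 samples of the series the number of major alleles ran from 0 to 4 over 12 samples, the same range as over the 8 acaa2 samples. The effective number of alleles ran from 1.01 to 9.97 in the tlr4 samples, against 1.004 to 2.95 in the acaa2 samples. The highest tlr4 values, 8.83 and 9.97 in tlr4bb-sg1 fish 3 and 4, rest on 102 and 91 indel reads.

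**Figure D2:**
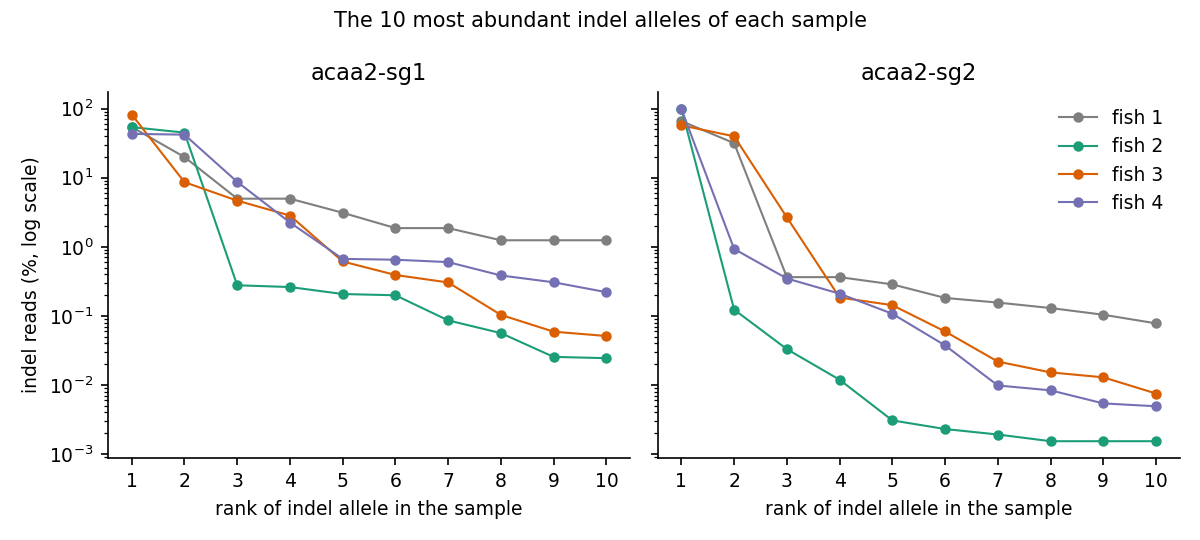
Share of indel reads (%, log axis) of the 10 most abundant indel alleles of each sample, ranked within the sample, at acaa2-sg1 (left) and acaa2-sg2 (right), with 1 line per fish. At acaa2-sg2 the first allele of fish 2 and fish 4 holds 99.8% and 98.3%, while at acaa2-sg1 the first 2 alleles of fish 2 and fish 4 are nearly level.

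Below the major alleles lay many alleles of few reads. In the samples with a major allele, the minor alleles numbered 48, 101 and 156 at acaa2-sg1 fish 2 to 4 and 35, 84 and 59 at acaa2-sg2 fish 2 to 4. Alleles that were single indels of the same net length as a major allele of their own sample held 55.8%, 70.4% and 39.1% of these minor reads at acaa2-sg1, and 90.3%, 62.6% and 22.2% at acaa2-sg2. An example is the 10-bp deletion -13:10D in acaa2-sg1 fish 4, at 629 reads, beside -11:10D at 43916 reads. Another is the 12-bp deletion -7:12D in the same sample, at 403 reads beside the 45193 of -6:12D. No share expected without a link to a major allele was computed. In acaa2-sg1 fish 1, which had no major allele, 1-bp deletions held 90.6% of the 128 single-deletion reads. Alleles of several indels held 0.378% of indel reads or less at acaa2-sg1 and 0.951% or less at acaa2-sg2.

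The leading class of deletion lengths was not the same in all fish at either site, and it differed between the 2 sites of each fish. Fish 1 and 3 shared it at each site, and fish 2 and 4 shared it at acaa2-sg2. Over reads with a single deletion, the mean length at acaa2-sg1 was 1.20, 4.27, 1.15 and 9.76 bp in fish 1 to 4. At acaa2-sg2 it was 10.5, 1.00003, 12.8 and 1.002 bp in the same order. Fish 3 therefore had short deletions at acaa2-sg1 and long ones at acaa2-sg2, and fish 4 the reverse. The class of 10 to 14 bp held 0.019% and 97.1% of the single-deletion reads of fish 3 at acaa2-sg1 and acaa2-sg2, and 87.2% and 0.020% of those of fish 4. In fish 2 the classes of 2 bp and of 3 to 9 bp held 54.3% and 45.4% at acaa2-sg1, while the class of 1 bp held almost 100% (99.998%) at acaa2-sg2. In fish 1 the class of 1 bp held 90.6% of the 128 single-deletion reads at acaa2-sg1, and the classes of 10 to 14 bp and of 3 to 9 bp held 66.5% and 31.7% of the 3844 at acaa2-sg2. Deletions of 15 bp or more were rare, with 0 reads at acaa2-sg1 and 21 and 2 reads in acaa2-sg2 fish 3 and 4. The longest was a single read of 57 bp. How far longer deletions could have been amplified and described is not given in the sources used here.

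**Figure D3:**
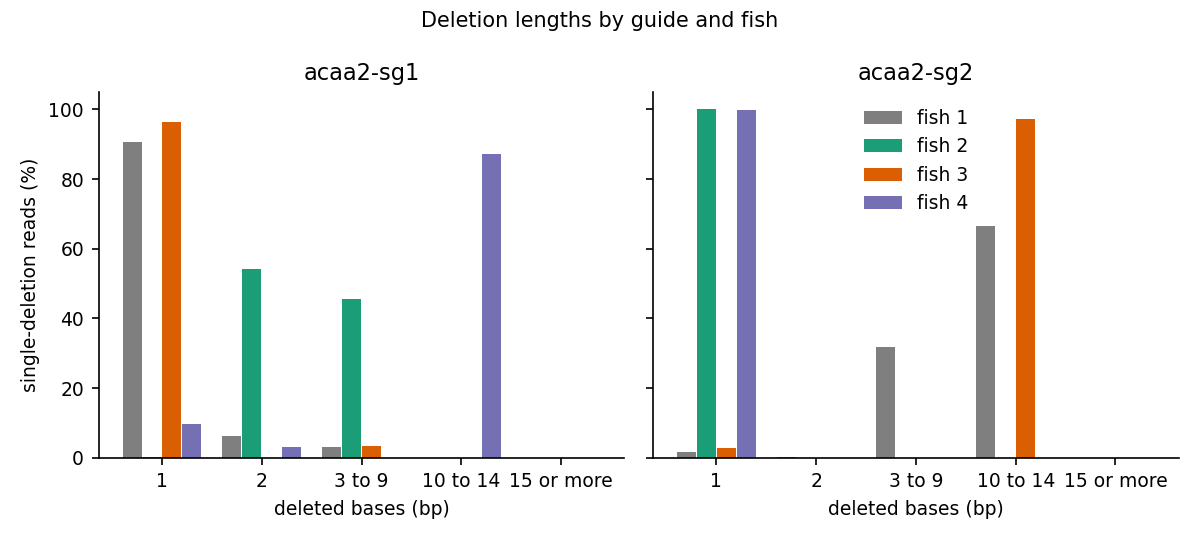
Share of single-deletion reads (%, linear axis from 0) in 5 classes of deleted bases at acaa2-sg1 (left) and acaa2-sg2 (right), with 1 bar per fish. Fish 3 stands at 1 bp on the left (96.5%) and at 10 to 14 bp on the right (97.1%), while fish 4 stands at 10 to 14 bp on the left (87.2%) and at 1 bp on the right (almost 100%).

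The mean over fish was 4.09 ± 4.05 bp at acaa2-sg1 and 6.34 ± 6.24 bp at acaa2-sg2 (SD, n = 4 each). The difference of -2.25 bp was smaller in size than either SD (exact permutation p = 0.657). It was negative in fish 1 and 3 and positive in fish 2 and 4. It was -3.04 bp in fish 1 and 2 and -1.46 bp in fish 3 and 4. Without fish 3 it was 0.896 bp, and without fish 1, 0.115 bp.

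Of the 8 measures, the side of position 0 on which bases were deleted gave the lowest p between the guides, although it did not pass 0.05. At acaa2-sg1, 20.3%, 0.131%, 11.1% and 72.4% of the deleted bases of fish 1 to 4 lay left of position 0, the side away from the PAM. The share of fish 1 rested on 128 single-deletion reads, of which 71.1% removed position 5, in the PAM. At acaa2-sg2 the share was 47.0% in fish 1 and 99.99%, 99.98% and 99.96% in fish 2 to 4. Every fish had the lower share at acaa2-sg1, with differences of -26.8, -99.9, -88.9 and -27.6 percentage points. The groups still overlapped, since acaa2-sg1 fish 4 lay above acaa2-sg2 fish 1. The mean was 26.0% ± 32.0 at acaa2-sg1 and 86.7% ± 26.5 at acaa2-sg2 (SD, n = 4 each), a difference of -60.8 points (exact permutation p = 0.057, Benjamini-Hochberg 0.457 over the 8 measures tested). The exact sign-flip permutation p over the 4 fish was 0.125, the smallest it can be, and within pairs the difference came to -63.3 points (fish 1 and 2) and -58.2 points (fish 3 and 4).

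**Figure D4:**
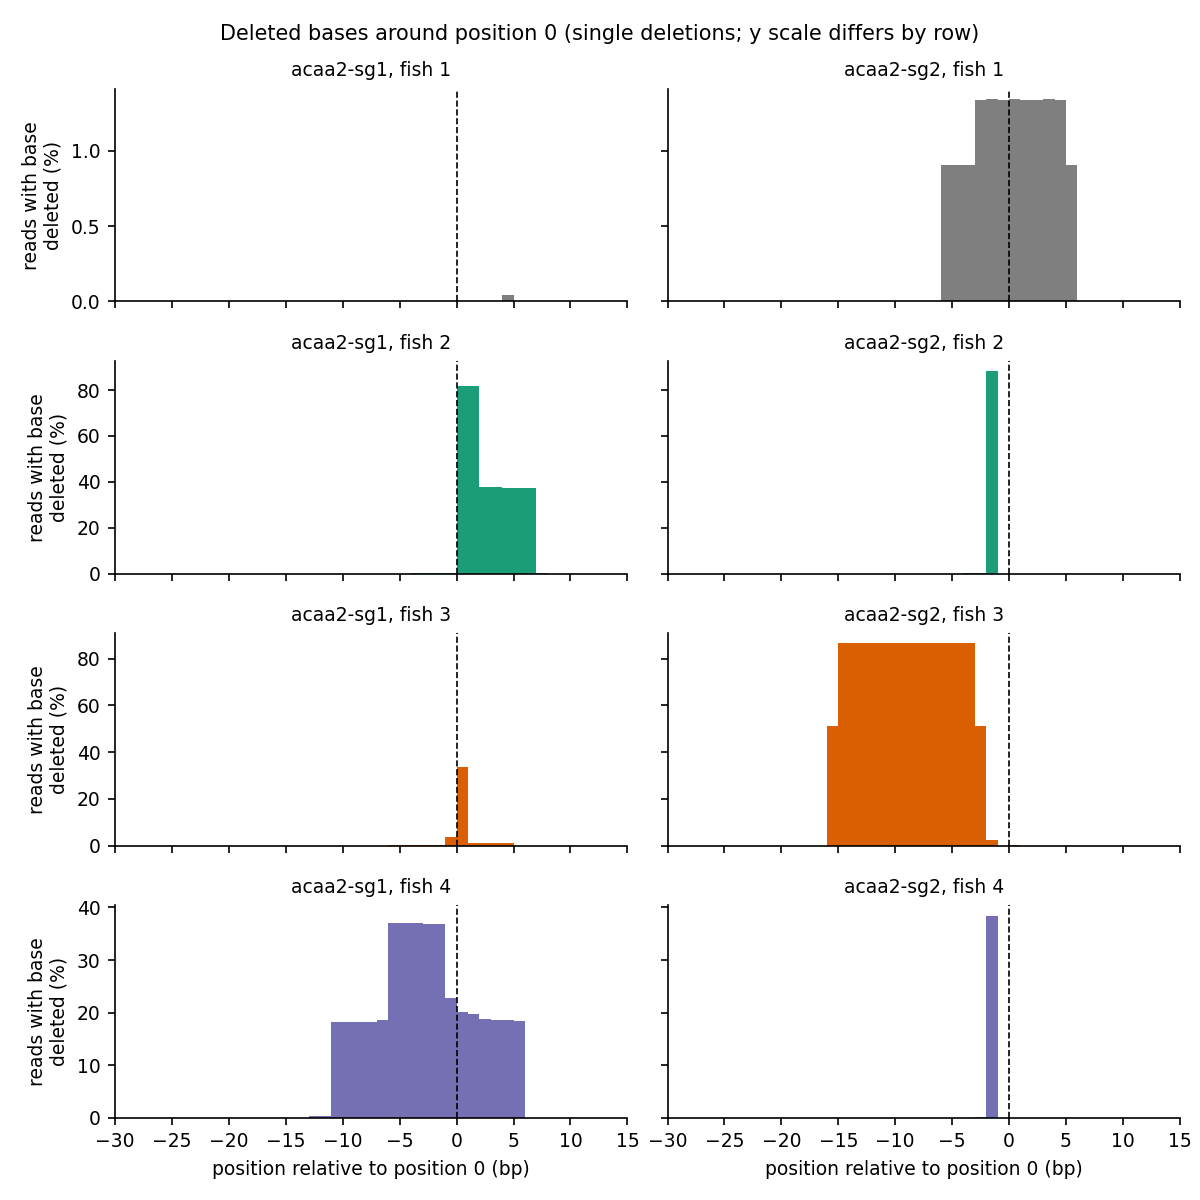
Share of classified reads (%, linear axis whose scale differs by row) in which each base was deleted, by distance from position 0 (bp, dashed line), for single deletions, with acaa2-sg1 on the left and acaa2-sg2 on the right and 1 row per fish. Deletions of fish 2 begin at position 0 and run right at acaa2-sg1 and lie on the left at acaa2-sg2, and those of acaa2-sg2 fish 3 peak at 86.5% on the left side.

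Outside acaa2-sg1 fish 4 and acaa2-sg2 fish 1, few deletions removed bases on both sides of position 0. Such reads made up 0%, 0.183%, 0.110% and 44.3% of the single-deletion reads of fish 1 to 4 at acaa2-sg1, and 98.2%, 0.00038%, 0.026% and 0.0015% at acaa2-sg2. The high values are acaa2-sg1 fish 4 and acaa2-sg2 fish 1, and in each the 12-bp deletion -6:12D accounts for most of them. The mean was 11.2% ± 22.1 at acaa2-sg1 and 24.6% ± 49.1 at acaa2-sg2 (SD, n = 4 each), a difference of -13.4 points (exact permutation p = 0.914). It was -49.0 points in fish 1 and 2, on the few indel reads of fish 1, and 22.2 points in fish 3 and 4. Without fish 1 it was 14.9 points.

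Once equal placements were allowed for, most single-deletion reads reached position 0 in every sample but acaa2-sg1 fish 1 and acaa2-sg2 fish 3. At acaa2-sg1, 99.5%, 99.1% and 56.7% of the single-deletion reads of fish 2 to 4 removed or bordered it. At acaa2-sg2 the share was 0.013%, 0.215% and 0.042% as listed, and 99.8%, 2.90% and 99.6% with the places that give the same product inside the rebuilt stretch, where -2:1D can also sit at the boundary. It was 98.6% in acaa2-sg2 fish 1. In fish 3 the deletions -16:14D and -15:12D ended 2 and 3 bases left of it, and whether they could slide further right depends on bases outside the stretch. The same holds for -11:10D of acaa2-sg1 fish 4, which also ended left of position 0. In acaa2-sg1 fish 1, 3.12% of 128 single-deletion reads reached it. The leading indels there, the deletion 5:1D with 87 reads and the insertion 5:1I with 32, lay in the PAM, and both were also read in the other fish, at 7, 41 and 43 reads and at 1, 31 and 42 reads.

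Of the 274 allele names at acaa2-sg1 and the 172 at acaa2-sg2, 31 occurred in both tables, and 9 of these reached 0.1% of the reads of a sample. Names match in position and length only, because the 2 stretches differ in sequence. The deletion -6:12D reached 18.4% at acaa2-sg1 and 0.900% at acaa2-sg2, each in a single fish. The 1-bp deletion 1:1D reached 32.5% at acaa2-sg1 and 0.165% at acaa2-sg2, and -2:1D reached 0.020% and 88.2%. Smaller shares were held by 1:1I (1.84% and 0.128%), -3:1D (0.243% and 0.109%) and -2:1I (0.121% and 0.136%). The names -11:10D, -13:10D and -7:12D had 1, 17 and 6 reads at acaa2-sg2.

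The sites were read as separate amplicons, so which alleles lay on the same copy of the gene was not measured. The 2 shares of a fish nevertheless limit the combined state, provided that both amplicons sampled the same gene copies evenly. Gene copies here are those that could be amplified at both sites, since a copy without a product gives no reads. Loss of the stretch between the sites was not measured. In fish 2, 88.3% to 100% of the gene copies carried a frameshift at 1 or both sites, a range that overlaps that of fish 3. An indel at both sites was carried by 70.8% to 82.4% of its copies, against at most 39.6% in the other fish. Copies of fish 2 with no indel at either site made up 0% to 11.7%. In fish 3 the frameshift share was 53.8% to 93.3%, and copies without any indel made up 0% to 10.8%, because 89.2% of the reads at acaa2-sg2 were edited. Fish 4 kept more unedited copies, with a frameshift share of 39.1% to 63.1% and 18.2% to 57.3% without any indel. Fish 1 was narrowly fixed at the other end, with a frameshift share of 0.457% to 0.535% and 98.56% to 98.64% without any indel.

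**Figure D5:**
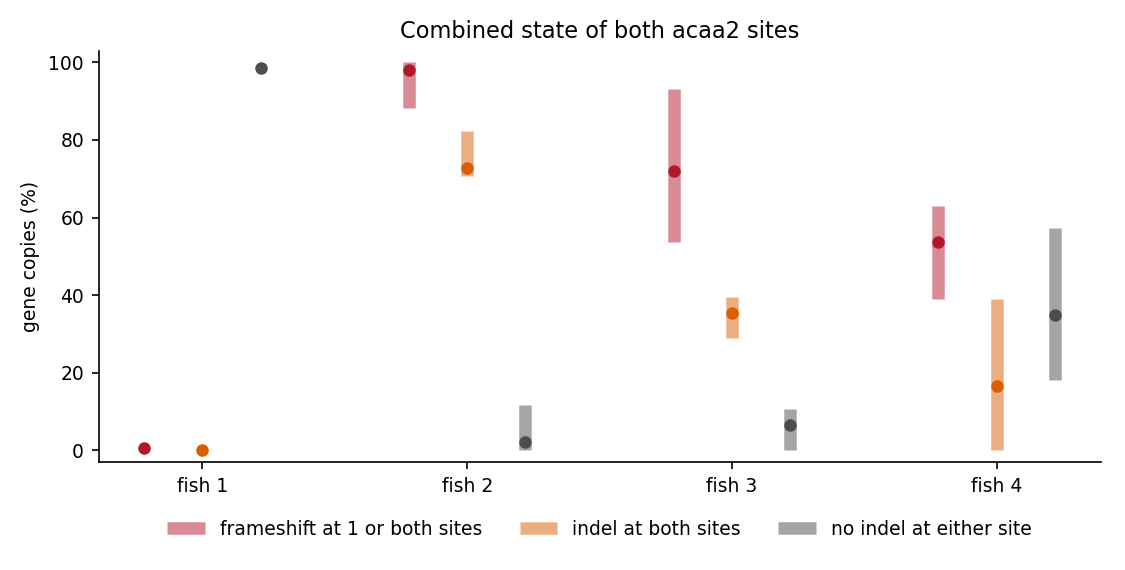
Share of the gene copies that could be amplified at both sites (%, linear axis) in 3 combined states of both acaa2 sites in each fish. Bars span the lowest and highest share that the reads at the 2 sites allow, and points give the share if the sites were edited independently. The frameshift bars run from 88.3% to 100% in fish 2, 53.8% to 93.3% in fish 3 and 39.1% to 63.1% in fish 4, and the bars of fish 1 are thinner than its points.

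If editing at the sites were independent, the frameshift share would be 0.534%, 97.9%, 72.0% and 53.7% in fish 1 to 4, and the share without any indel 98.6%, 2.05%, 6.49% and 34.9%. Over the 4 fish, the lowest frameshift share that the reads allow averaged 45.4% ± 36.4 and the highest 64.2% ± 45.4 (SD, n = 4). At least 6.75% of the copies of fish 3 and 36.9% of those of fish 4 carried no frameshift at either site, and at most 46.2% and 60.9% did. In fish 2 this share was at most 11.7%.

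A frameshift at each site can restore the frame downstream of both when the lengths sum to a multiple of 3. This arises in fish 2, where the 1-bp deletion of acaa2-sg2 (88.2%) and the 2-bp deletion of acaa2-sg1 (44.4%) sum to 3 bp, whereas the 7-bp deletion of acaa2-sg1 and the 1-bp deletion do not. At most 44.8% of the gene copies of fish 2 could carry such a pair, and 39.6% would if the sites were independent. The same limit was 38.8% in fish 3, where the 1-bp deletion of acaa2-sg1 and the 14-bp deletion of acaa2-sg2 sum to 15 bp, with 18.7% under independence. In fish 4 it was 1.62%, and in fish 1 it was 0.078%. Codons between the sites would still be shifted in such copies, where both sites lie in coding exons.

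Of the 8 measures compared between acaa2-sg1 and acaa2-sg2, 0 had an exact permutation p under 0.05, in a design of 4 against 4 samples whose smallest p is 0.029. The lowest Benjamini-Hochberg value was 0.457. A p that misses the threshold does not show that the guides act alike, since the SD between fish was 26.5 to 42.5 percentage points for the indel and left-side shares of the guides. The SD of the within-fish differences was 24.5 points for the indel share and 39.1 points for the left-side share.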

How the data were processed

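The tables hold counts of reads per allele and fish, as deposited by the authors, 1 table per guide, per the file headers. DNA from sorted tumour cells (50 to 100 ng) was amplified to products of 200 to 280 bp, per the labels' protocols. Genome build GRCz10 and R 4.0.5 are named in the submitters' processing notes, and the aligner, variant caller and filters are not given in the sources used here. Columns were tied to samples by guide and fish number, and 0 columns belonged to no listed sample. The row Other was left out. Net length, deleted positions and allele counts were computed from the allele names in Python 3.11.15 with numpy 2.4.6, pandas 2.3.3 and scipy 1.17.1, after the code had been tested on simulated data. Alleles of several indels entered the indel, frameshift and allele measures but not the length and position measures.

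The difference in means between the guides was tested by exact permutation, two-sided, over 4 against 4 samples, with a threshold of 0.05 and Benjamini-Hochberg values over 8 measures. The fish number as a block was an alternative, tested by sign-flip permutation. Wilson intervals at 95% and the limit of 3 reads behind a count of 0 cover counting error only, since PCR reads without molecular identifiers are not independent molecules. Allele counts of all 12 pairs of fish differed by a chi-square of at least 821 per degree of freedom, and every sample was kept as its own replicate. This chi-square treats reads as independent too, so it does not test for repeat amplification of the same DNA.

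Alleles named were those at 1% or more in a sample, the 2 leading indel alleles of each sample, substitution alleles at 5% or more in a sample, and names of 0.1% or more found in both tables. The guides, measures and rules were chosen with earlier results of these data known. The closing section gives the alternatives tried.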

Additional observations from a re-analysis of the deposited data

Results flagged for a closer look

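In 5 of the 16 sets of 4 samples examined, 1 sample stood apart from the other 3 by a gap that took up most of the set's range. For normally distributed values, such a gap arises in about 1 in 20 sets. Many of these shares lie near the ends of their range, so that rate need not hold here. The sets are also not independent of each other. The in-frame percent was 18.7% in acaa2-sg1 fish 4 and 35.5% in acaa2-sg2 fish 3, against at most 0.908% in any other acaa2 sample. The 12-bp deletion -6:12D led in acaa2-sg1 fish 4, and the 12-bp deletion -15:12D stood behind the 14-bp deletion -16:14D in acaa2-sg2 fish 3. The share of single-deletion reads with bases removed on both sides of position 0 was 44.3% in acaa2-sg1 fish 4 and 98.2% in acaa2-sg2 fish 1, against at most 0.183% in the others. The share of deleted bases left of position 0 was 47.0% in acaa2-sg2 fish 1, against 99.96% or more in the other 3 fish of that guide. The values of acaa2-sg2 fish 1 come from 3844 single-deletion reads, or 1.36% of its classified reads.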

How the results depend on the processing

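Of 218 recomputed values, 203 kept their direction and their side of the threshold or moved by less than 1 SD, and 15 turned direction. The tally includes values that could not change, so it does not measure robustness. For example, the left-side difference stayed at -60.8 points under each treatment of Other reads, since those reads do not enter it. The shares of the combined state have no p and cannot turn direction. The differences in major alleles, effective alleles and left-side share (acaa2-sg1 minus acaa2-sg2) kept their direction throughout, and none of the 8 measures passed 0.05 under any alternative. Alternatives within pairs of fish, with a whole fish left out, or with fish as blocks have too few samples to pass it. With each sample or fish left out in turn, the differences ran from -31.0 to 0.407 points for indels, -24.3 to 5.35 for frameshifts, -12.1 to 5.95 for in-frame indels, -5.92 to 0.896 bp for deletion length, 0.417 to 1.75 for major alleles, 0.505 to 1.26 for effective alleles, -76.3 to -47.8 points for the left-side share and -32.6 to 14.9 points for deletions on both sides. Without samples of under 1000 indel reads, the indel difference was 0.407 and the frameshift difference 3.18 points. Without alleles under 1%, the length difference was 0.208 bp and the both-sides difference 15.3 points, which leaves out both samples of fish 1. The both-sides difference was 0.133 points by medians and 22.2 points in fish 3 and 4 alone. The fish number as a replicate block gave sign-flip p values of 0.125 to 1. It could not change a call, since 0.125 is the smallest p of this test. The mean lowest frameshift share of the combined state ran from 31.1% to 60.4%, and the highest share unedited at both sites from 26.6% to 55.9%, with 1 fish left out. The allele measures of acaa2-sg1 fish 1 rest on 161 indel reads among 205913 classified reads.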
